A study of Mus musculus with 6 samples.

Results

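The genes described here encode the machinery of mitosis: the cyclin B-Cdk1 engine, the kinases and checkpoint that time chromosome separation, the kinetochore, the motors and crosslinkers of the spindle, and the proteins that condense chromosomes. They are 54 genes listed by symbol, out of 24562 symbols in the count table. Each gene was represented by its RefSeq transcript with the highest total count. All 54 were found, and all 54 passed the filter on low counts.

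RNA was sequenced from bone marrow-derived macrophages (BMDMs), which are macrophages grown from marrow precursors, here in medium conditioned by L929 cells, and left unstimulated. AclyM-KO cells (3 libraries) came from C57BL/6J Acly fl/fl mice that carry Cre under the *Lyz2* promoter, so that *Acly* is deleted in myeloid cells. The 3 control libraries are labelled wild type, and the study describes its controls as Acly fl/fl littermates without Cre, so both groups carry the floxed alleles. The donors were female by the series description. The study's account of its in vitro work instead names both sexes, aged 8 to 14 weeks, and also states that mice were pooled and the replicates were technical. The p-values below therefore measure the spread between these libraries, and the effects of Cre and of *Acly* loss cannot be told apart.

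As a check of the labels, *Acly* itself fell from 229.7 ± 8.18 CPM to 96.8 ± 3.06 CPM in AclyM-KO libraries (SD, n = 3 each). CPM is a gene's count scaled to the size and composition of its library. Total counts were between 19327459 and 23582992 per library in 5 libraries and 44507233 in AclyM-KO replicate 2, which was 2.18 times the mean of the others. That library also stood apart in the mitosis genes, as described below, so counts are given with and without it. The summed level of 8 macrophage markers was between 21700 and 22700 CPM in control and between 12700 and 15300 CPM in AclyM-KO libraries. Most of that difference was *Lyz2*, at 13030 to 13840 CPM in control and 5606 to 6979 CPM in AclyM-KO libraries. The other 7 markers summed to between 8623 and 8823 CPM and between 7050 and 8316 CPM. Of the 8 markers, *Lyz2* (the site of the Cre insertion), *Csf1r* (the receptor for the macrophage growth factor) and *Mertk* (a receptor for apoptotic cells) were lower, and *Adgre1*, *Cd68*, *Itgam*, *Cd14* and *Fcgr1* did not pass the threshold.

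In dividing cells, cyclin B and Cdk1 drive entry into mitosis, Aurora and Polo-like kinases build the spindle, and kinetochores attach each chromosome to microtubules. The spindle checkpoint (Bub and Mad proteins) holds back the anaphase-promoting complex (APC/C) until every chromosome is attached. Most of these genes are transcribed together late in the cell cycle, through the cell cycle homology region (CHR) and CCAAT box in their promoters, which are read by the DREAM and MuvB complexes with B-Myb and Foxm1, and by NF-Y. Cultured marrow precursors divide under macrophage growth factor and slow down as they mature.

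The promoters below show these elements in a selection of genes that span the range of responses. They are 120 bases upstream of the RefSeq transcription start, or of the counted transcript's start in GENCODE where that lies further upstream. They are written 5′ to 3′ on the gene's strand from GRCm38.p6 in the RefSeq promoter table, with the motif letters in capitals (ATTGG and TTCAAA are CCAAT and TTTGAA on the other strand). *Cdk1*, *Ccnb2*, *Plk1*, *Aurka* and *Top2a* were higher in AclyM-KO macrophages, *Cdc20* was past the threshold in neither direction, and *Clasp2* was lower. The stretches lie at chr10:69352939-69353058 (minus strand, *Cdk1*), chr9:70421555-70421674 (minus, *Ccnb2*), chr7:122159315-122159434 (plus, *Plk1*), chr2:172370571-172370690 (minus, *Aurka*), chr11:99024190-99024309 (minus, *Top2a*), chr4:118437353-118437472 (minus, *Cdc20*) and chr9:113812466-113812585 (plus, *Clasp2*, 1 of its 3 promoters).
Cdk1: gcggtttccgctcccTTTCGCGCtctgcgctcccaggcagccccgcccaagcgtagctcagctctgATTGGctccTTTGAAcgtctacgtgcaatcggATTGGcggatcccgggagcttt
Ccnb2: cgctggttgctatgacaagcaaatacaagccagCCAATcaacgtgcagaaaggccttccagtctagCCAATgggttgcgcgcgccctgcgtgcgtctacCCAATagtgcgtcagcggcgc
Plk1: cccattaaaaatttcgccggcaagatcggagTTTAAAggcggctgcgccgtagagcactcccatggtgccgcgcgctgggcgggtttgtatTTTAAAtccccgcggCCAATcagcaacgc
Aurka: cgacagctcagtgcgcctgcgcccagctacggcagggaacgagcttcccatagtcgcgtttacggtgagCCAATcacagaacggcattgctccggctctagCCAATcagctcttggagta
Top2a: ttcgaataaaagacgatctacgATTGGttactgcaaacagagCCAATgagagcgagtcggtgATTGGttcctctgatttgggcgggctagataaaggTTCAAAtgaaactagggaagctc
Cdc20: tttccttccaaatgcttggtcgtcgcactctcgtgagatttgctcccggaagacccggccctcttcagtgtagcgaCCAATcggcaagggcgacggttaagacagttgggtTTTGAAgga
Clasp2: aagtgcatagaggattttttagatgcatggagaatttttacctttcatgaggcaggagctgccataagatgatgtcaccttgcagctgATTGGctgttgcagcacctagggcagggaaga
Distances are counted from the RefSeq start to the first base of the motif. The counted transcript starts 26 bases further upstream in *Cdk1* and 9 bases in *Cdc20*, so their printed stretches end there. In the printed stretches, *Cdk1* had a CHR 71 bases before its start between CCAAT boxes at 80 and 48 bases, and an E2F motif at 131 bases. *Plk1* had CHR matches at 89 and 29 bases and a CCAAT box at 14 bases. *Top2a* had a CHR at 23 bases and CCAAT boxes at 98, 78 and 58 bases. Outside them, *Cdk1* had a further CHR at 15 bases and a CCAAT box at 208 bases, *Plk1* a CHR 31 bases into the transcript, *Top2a* a CHR at 179 bases and CCAAT boxes at 227, 189 and 149 bases, and *Cdc20* a CCAAT box at 8 bases. *Ccnb2* had CCAAT boxes 87, 54 and 21 bases before its start, with CHR matches outside the printed stretch, at 167 bases upstream and 5 bases into the transcript. *Aurka* had CCAAT boxes at 51 and 19 bases before its start, and its CHR letters lay 18 and 33 bases into the transcript. *Cdc20*, with a CHR at 18 bases and a CCAAT box at 53 bases, did not pass the threshold. The printed *Clasp2* promoter had a single CCAAT box at 32 bases, and a CHR was found in another promoter of the gene. Stretches of *Ccnb1* and *Birc5*, which were higher, and of *Bub1b*, past the threshold in neither direction, were also taken and are not printed. That of *Birc5* held no motif letters. Those of *Ccnb1* and *Bub1b* held a CCAAT box and no CHR. Each of these genes had a CHR outside its stretch.

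Over the whole RefSeq windows (250 bases before to 50 bases after the start), 44 of the 54 genes had a promoter in the table, with 51 promoters in all. Letters searched on both strands were TTTGAA and TTTAAA for the CHR, CCAAT for the CCAAT box, and TTTCCCGC, TTTGGCGC, TTTCGCGC and TTTGCCGC for E2F, and 1 CHR match overlapped a CCAAT match. A CHR was present in 74.5% of the members' promoters, against 19.5% of 11700 promoters of genes tested and 27.6% of all 32851 promoters. The CCAAT box was present in 74.5%, against 37.8% and 37.4%, and both elements together in 60.8%, against 7.62% and 10.7%. E2F letters were rarer, in 9.8% of the members' promoters against 4.1% and 2.26%. Among the members, a CHR was found in 90.9% of 33 promoters of genes that were higher in AclyM-KO macrophages and in 42.9% of 14 promoters of genes past the threshold in neither direction. The CCAAT box was about as common in both, at 75.8% and 71.4%. The shares count promoters, and 3 of the 14 were those of *Cenpk*, which had no CHR letters. The split also depends on the fit. With GC content corrected, as described below, *Mad2l1*, *Kif18a* and *Ncaph*, without CHR letters, and *Bub1b* and *Cenpf*, with them, passed the threshold. Both lower genes, *Cenpa* and *Clasp2*, also had CHR and CCAAT letters, with a CHR in 2 of their 4 promoters and a CCAAT box in 3. Of the genes that rose and had a promoter in the table, *Bub1*, *Nuf2* and *Nusap1* had no CHR letters in the window. These shares are descriptions of letters and were not tested.

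**Figure D1:**
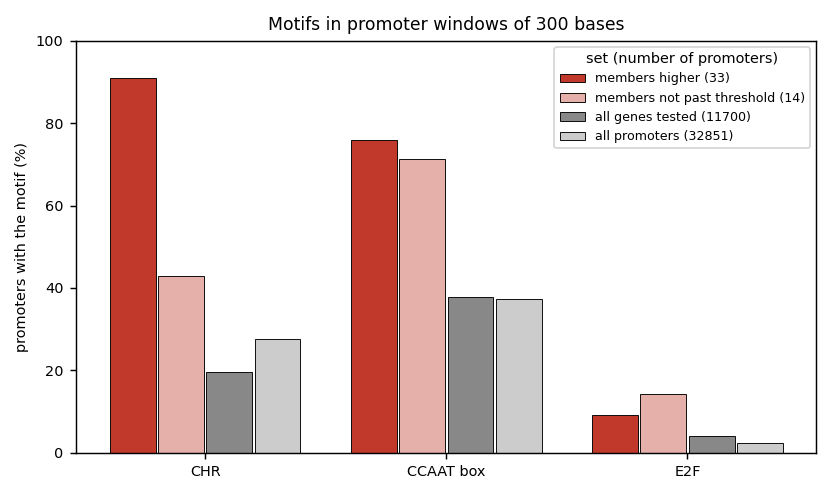
Share of promoter windows (vertical axis, percent) that hold the letters of the CHR, CCAAT box or E2F motif on either strand, for members that were higher in AclyM-KO macrophages, members past the threshold in neither direction, all genes tested and all promoters in the RefSeq table. The CHR bars fall from 90.9% to 42.9% between the 2 groups of members, while the CCAAT bars are at 75.8% and 71.4%.

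The main comparison asked whether mitosis genes differed between AclyM-KO and control macrophages. By a quasi-likelihood test in edgeR, with p adjusted over 11470 genes after Benjamini and Hochberg, 37 of the 54 genes were higher in AclyM-KO libraries, 2 (*Cenpa* and *Clasp2*) were lower and 15 had an adjusted p above 0.05. Of all genes tested, 6.7% were higher and 5.65% lower. The 37 rose by 1.22-fold (*Incenp*) to 2.0-fold (*Cenpn*). The median log2 fold change of the 54 was 0.59, or 1.5-fold, and that of all genes tested was 0.00. In bulk RNA, more dividing cells and more mitotic RNA per cell cannot be told apart. Leaving out control replicate 1, 2 or 3 left 20, 21 or 23 members higher and 1, 2 or 1 lower, with 598, 658 or 628 of all genes past the threshold. The 37 genes and both lower genes are given by role below. Of them, 19 were past the threshold in the same direction in all 15 alternative fits at that threshold without a GC correction and in both fits with GC content corrected, which were added after the data were seen: *Foxm1*, *Aurka*, *Bub1*, *Ube2c*, *Aurkb*, *Birc5*, *Cenpa*, *Cenpn*, *Kif11*, *Kif20a*, *Kif20b*, *Kif2c*, *Tpx2*, *Prc1*, *Anln*, *Ect2*, *Nusap1*, *Hmmr* and *Top2a*.

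Library by library, all 3 AclyM-KO values lay above all 3 control values for 43 members and below them for *Cenpa*, *Clasp1* and *Clasp2*, while 8 members overlapped. Over all genes tested, 16.3% and 16.6% separated in this way. Taken as the mean deviation on a log2(CPM + 0.5) scale from each gene's average over the 6 libraries, the members were at -0.28, -0.24 and -0.21 in control replicates 1 to 3 and at 0.09, 0.47 and 0.18 in AclyM-KO replicates 1 to 3. Every AclyM-KO library was thus above every control library, and replicate 2 was further from controls than the other 2.

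**Figure D2:**
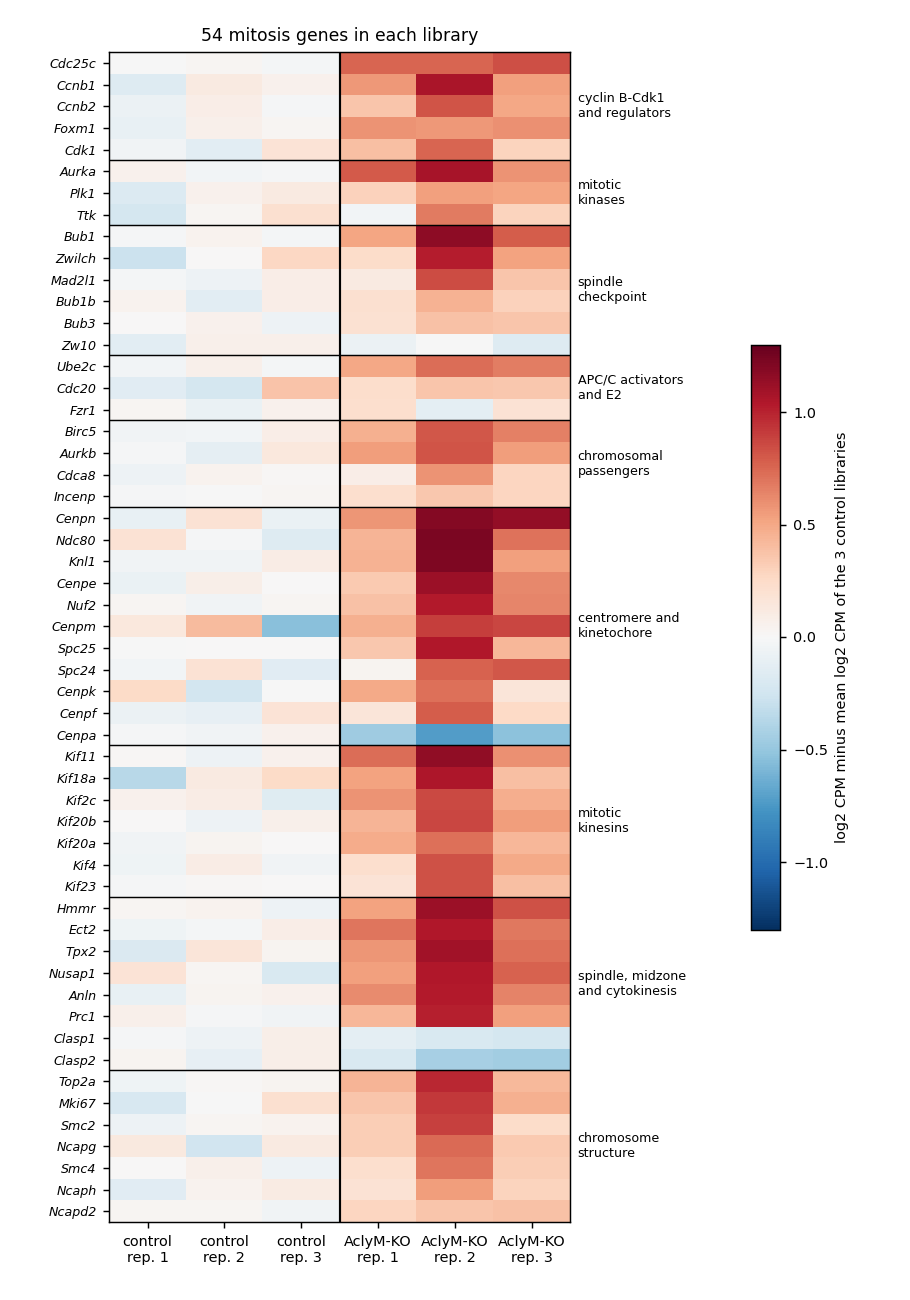
Heat map of the 54 genes (rows, grouped by role and ordered by fold change) in the 6 libraries (columns), as log2 CPM minus the mean log2 CPM of the 3 control libraries. Most rows are red in all 3 AclyM-KO columns and deepest in replicate 2, and the rows of *Cenpa* and *Clasp2* are blue.

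AclyM-KO replicate 2 held the highest value for 44 of the 54 genes (81.5%), against 28.7% of all genes tested. Its level was 0.797 (*Fzr1*) to 1.65 times (*Knl1*) the mean of AclyM-KO replicates 1 and 3, with a median of 1.31. Without this library, 36 members were higher and 2 lower, against 9.56% and 8.92% of all genes tested in that fit, and the members' median was 0.43 on the log2 scale. The 36 are all among the 37 found with it, and *Ncapg* was lost. The sign was positive for 50 members with it and for 50 without it. The spread within groups also differed. The median coefficient of variation was 5.61% in control and 17.6% in AclyM-KO libraries, and 48 genes varied more in AclyM-KO libraries. The AclyM-KO values include replicate 2, and the spread was not computed over all genes tested, so it cannot be called particular to these genes.

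**Figure D3:**
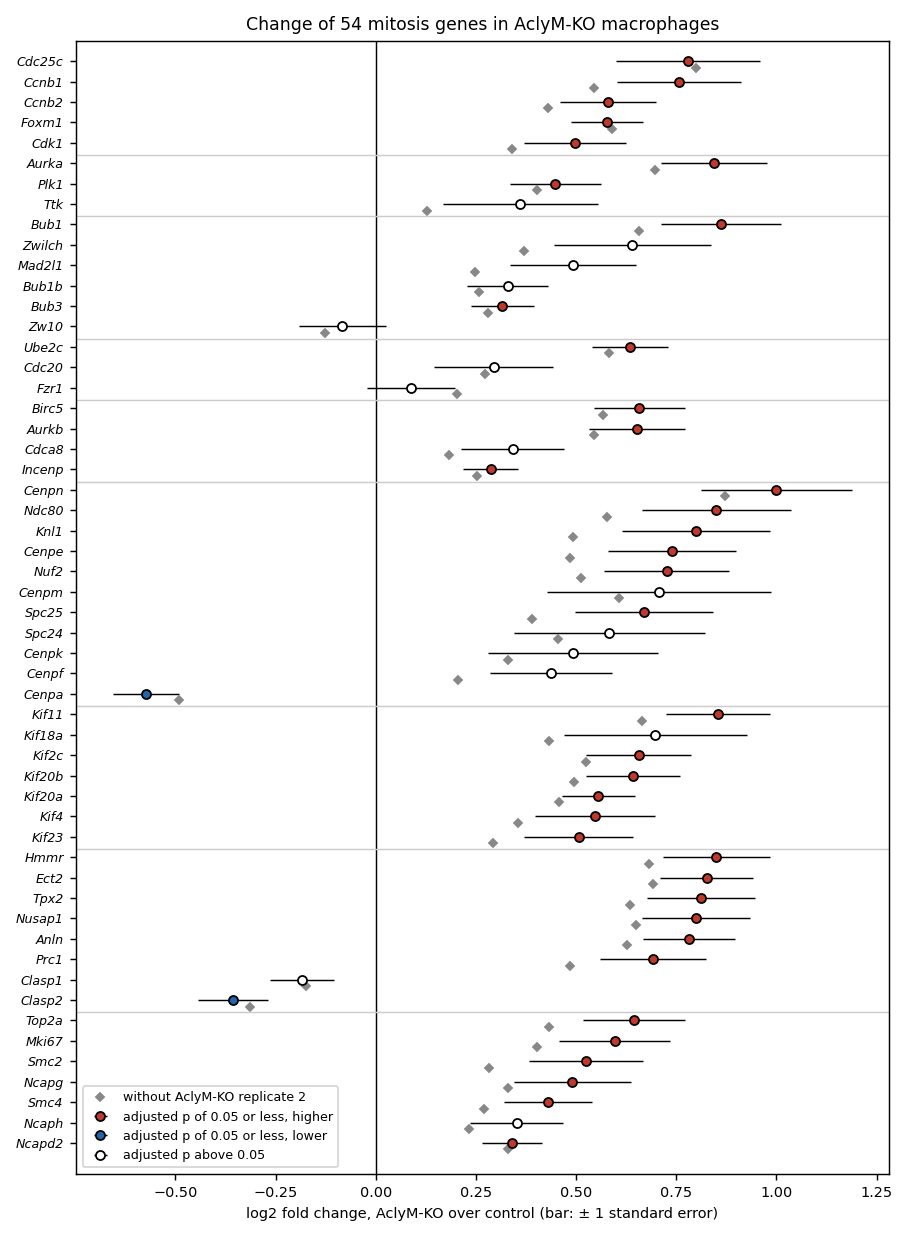
Log2 fold change of each of the 54 genes, AclyM-KO over control, with bars of 1 standard error from edgeR. Filled circles passed an adjusted p of 0.05, open circles did not, and diamonds give the value without AclyM-KO replicate 2. Most diamonds sit to the left of their circle and to the right of 0.

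The level of this library moved with base composition. Across the 54 genes, the log2 ratio of AclyM-KO replicate 2 to the mean of replicates 1 and 3 fell with the GC content of the transcript (Pearson r = -0.699, Spearman rho = -0.703, n = 54 genes that share the same libraries). A negative correlation was also present across 11253 genes tested (r = -0.508, rho = -0.544). The members have less GC than most genes, with a median of 47.3% against 50.2%. Their median log2 ratio was 0.38, against 0.10 in 4130 other genes with a GC content between 43.0% and 50.3%. With GC content corrected in each library, a step added after the data were seen, 43 members were higher and 2 lower, and their median was 0.60 on the log2 scale, while 9.79% of all genes in that fit were higher and 8.35% lower. With the correction and without replicate 2, 38 were higher and 2 lower, and the median was 0.45, against 9.33% and 8.58% of all genes.

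**Figure D4:**
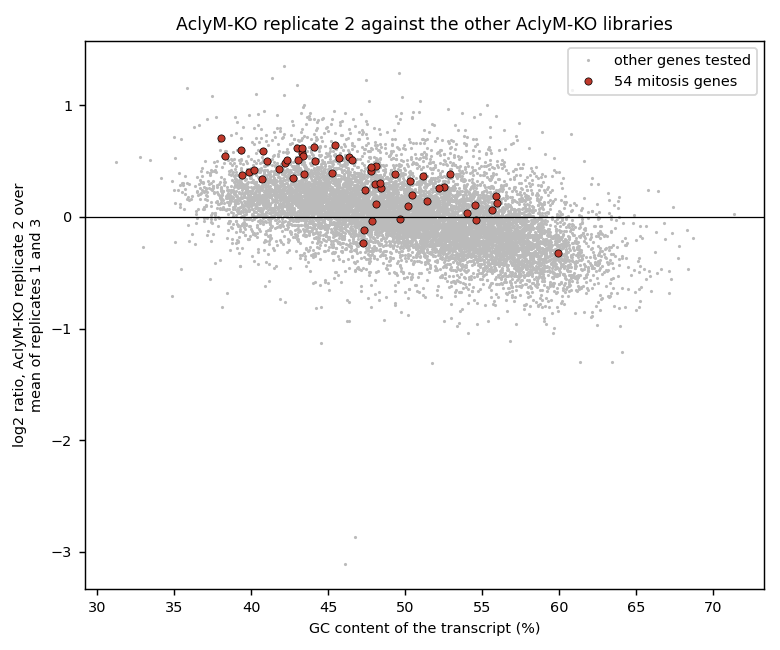
Each point is a gene, plotted by the GC content of its transcript (horizontal axis, percent) and the log2 ratio of AclyM-KO replicate 2 to the mean of AclyM-KO replicates 1 and 3 (vertical axis). The 54 mitosis genes lie toward low GC content and mostly above 0, with *Fzr1* at the lower right.

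The cyclin B-Cdk1 engine and its regulators rose in all 5 genes, with a median log2 fold change of 0.58. *Cdk1*, the mitotic kinase itself, was at 37.5, 35.3 and 43.9 CPM in control and 50.8, 65.4 and 47.2 CPM in AclyM-KO replicates 1 to 3. The groups did not overlap, though control replicate 3 came within a few CPM of AclyM-KO replicate 3, and the log2 fold change was 0.50 ± 0.13 (SE, edgeR adjusted p = 0.0249). *Ccnb1*, which encodes cyclin B1, went from 11.8, 14.3 and 13.8 CPM to 19.7, 27.8 and 19.3 CPM, which is 0.76 ± 0.15 on the log2 scale (SE, edgeR adjusted p = 0.00875). *Ccnb2*, encoding cyclin B2, went from 25.2, 28.1 and 26.2 CPM to 34.0, 46.7 and 37.4 CPM and had the highest level per length of the 5, at 17.3 CPM per kilobase in control. Both cyclins were highest in AclyM-KO replicate 2. *Foxm1* and *Cdc25c* behaved differently, with flat values inside each group. *Foxm1*, the transcription factor that switches on many of the other members, was at 22, 24.6 and 23.9 CPM in control and 35.3, 34.7 and 35.5 CPM in AclyM-KO libraries (log2 fold change 0.58 ± 0.09 SE, edgeR adjusted p = 0.00205). Its exons overlap those of *Tex52* on the same strand. *Cdc25c*, the phosphatase that activates Cdk1, had the lowest level per length, at 1.51 CPM per kilobase in control, and went from 2.91, 2.99 and 2.89 CPM to 4.96, 4.95 and 5.24 CPM (log2 fold change 0.78).

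Of the 3 mitotic kinases, *Aurka* and *Plk1* rose and *Ttk* did not pass the test. *Aurka*, the Aurora kinase of centrosomes and spindle poles, was at 14.6, 13.6 and 13.8 CPM in control and 24.3, 29.3 and 20.9 CPM in AclyM-KO libraries, which is 0.84 ± 0.13 on the log2 scale (SE, edgeR adjusted p = 0.00212). *Plk1*, the Polo-like kinase of mitotic entry, changed less, from 17.3, 20.2 and 21.2 CPM to 23.9, 28.2 and 27.8 CPM (log2 fold change 0.45, edgeR adjusted p = 0.0242), and its exons overlap an annotated gene on the opposite strand. The checkpoint kinase gene *Ttk* was at 6.09, 7.25 and 8.21 CPM in control and 6.96, 11.4 and 8.72 CPM in AclyM-KO libraries, so that AclyM-KO replicate 1 fell among the controls. Its log2 fold change was 0.36 with all libraries and 0.13 without AclyM-KO replicate 2 (adjusted p = 0.260 and 0.678 in edgeR).

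The spindle checkpoint was divided, with 2 of its 6 genes higher and 4 past the threshold in neither direction. *Bub1*, the kinase that recruits other checkpoint proteins to kinetochores, went from 17.1, 17.9 and 17.0 CPM to 24.7, 38.8 and 29.8 CPM (log2 fold change 0.86 ± 0.15 SE, edgeR adjusted p = 0.00375). *Bub3*, its binding partner and the gene with the highest level per length of the 6 (26.6 CPM per kilobase in control), rose by less, from 59.3, 61.5 and 56.4 CPM to 67.7, 77.0 and 75.6 CPM (log2 fold change 0.32). The next 3 genes missed the threshold narrowly. *Bub1b*, which encodes the checkpoint protein BubR1, was at 29.0, 25.6 and 29.9 CPM in control and 32.5, 38.5 and 34.6 CPM in AclyM-KO libraries, without overlap (log2 fold change 0.33, edgeR adjusted p = 0.0552). *Mad2l1*, encoding Mad2, the inhibitor of Cdc20, was at 26.1, 25.5 and 28.2 CPM and 28.9, 47.8 and 34.1 CPM, a log2 fold change of 0.49 that was 0.25 without AclyM-KO replicate 2 (adjusted p = 0.0618 and 0.0845 in edgeR). *Zwilch*, with the lowest level per length of the 6, was at 10.1, 12.3 and 14.7 CPM and 14.4, 24.8 and 17.5 CPM (log2 fold change 0.64, edgeR adjusted p = 0.0539). Its groups overlapped, and its log2 fold change was 0.37 without AclyM-KO replicate 2 (edgeR adjusted p = 0.0892). The partner of *Zwilch* in the dynein-recruiting RZZ complex, *Zw10*, was flat, at 17.0, 19.5 and 19.6 CPM in control and 17.7, 18.6 and 16.6 CPM in AclyM-KO libraries (log2 fold change -0.08).

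The 3 genes that act with the APC/C differed among themselves. *Ube2c*, the ubiquitin-conjugating enzyme of the APC/C, rose from 23.3, 25.0 and 23.6 CPM to 33.9, 39.6 and 37.9 CPM (log2 fold change 0.64 ± 0.10 SE, edgeR adjusted p = 0.00180). Its activator genes did not pass the threshold. *Cdc20*, the activator used in mitosis, was at 14.6, 13.9 and 21 CPM in control and 19, 20.8 and 20.7 CPM in AclyM-KO libraries, where control replicate 3 was above all 3 AclyM-KO values (log2 fold change 0.29, edgeR adjusted p = 0.229). Its exons overlap those of *Elovl1*, which runs on the other strand. Counting used the default strand setting of its tool, which the sources do not spell out, so reads of the pair may not be told apart. *Fzr1*, which encodes Cdh1, the activator used at mitotic exit and in G1, was at 31.4, 29.0 and 32.1 CPM and 35.8, 28.2 and 35.0 CPM (log2 fold change 0.09, edgeR adjusted p = 0.656). It had the highest transcript GC content of the 54, at 59.9%, and was the gene in which AclyM-KO replicate 2 was furthest below its 2 companions.

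In the chromosomal passenger complex, which corrects wrong attachments and later directs cytokinesis, 3 of 4 genes rose. *Birc5*, encoding survivin, went from 17.3, 17.4 and 18.9 CPM to 24.6, 31.3 and 28.2 CPM (log2 fold change 0.66 ± 0.11 SE, edgeR adjusted p = 0.00362). The catalytic subunit *Aurkb* went from 14.7, 13.8 and 16.3 CPM to 21.8, 26.3 and 21.6 CPM, a log2 fold change of 0.65. The scaffold gene *Incenp* had the highest level per length of the 4 (26.4 CPM per kilobase in control) and the smallest change among the 37 genes that rose, from 84.2, 85.0 and 86.9 CPM to 99.7, 109 and 103 CPM (log2 fold change 0.29 ± 0.07 SE, edgeR adjusted p = 0.0189). *Cdca8*, encoding borealin, did not pass (log2 fold change 0.34, edgeR adjusted p = 0.107). Without AclyM-KO replicate 2 its log2 fold change was 0.18 (edgeR adjusted p = 0.239).

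Of 11 centromere and kinetochore genes, 6 rose, 1 fell and 4 did not pass the threshold. The outer kinetochore genes that bind microtubules rose: *Ndc80* went from 13.7, 12 and 10.7 CPM to 16.4, 28.3 and 19.7 CPM (log2 fold change 0.85 ± 0.19 SE, edgeR adjusted p = 0.0126). Its partners *Nuf2* and *Spc25* had log2 fold changes of 0.73 and 0.67, and *Knl1*, the platform for Bub proteins, 0.80. *Spc24*, the remaining subunit of the Ndc80 complex, was at or below 5.06 CPM in every library and did not pass (log2 fold change 0.58, edgeR adjusted p = 0.137). *Cenpe*, a kinetochore motor, rose by 0.74 on the log2 scale. In *Ndc80*, *Nuf2*, *Knl1*, *Spc25* and *Cenpe*, AclyM-KO replicate 2 was 1.44 to 1.65 times the mean of replicates 1 and 3. Leaving it out gave log2 fold changes of 0.49 for *Knl1*, 0.39 for *Spc25* and 0.49 for *Cenpe*. *Cenpn*, a reader of centromeric nucleosomes, had the largest fold change of the 54, from 4.91, 5.98 and 4.96 CPM to 7.83, 12.1 and 11.6 CPM (log2 fold change 1.0 ± 0.19 SE, edgeR adjusted p = 0.00565). *Cenpf*, *Cenpk* and *Cenpm* had log2 fold changes of 0.44, 0.49 and 0.71 and adjusted p-values of 0.0836, 0.158 and 0.126 in edgeR. Without AclyM-KO replicate 2 the log2 fold changes of these 3 were 0.21, 0.33 and 0.61. *Cenpm*, at 1.73, 2.09 and 1.08 CPM in control and 2.18, 2.95 and 2.88 CPM in AclyM-KO libraries, had an SE of 0.28.

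*Cenpa* (chr5:30666877-30674837 on the plus strand of GRCm38.p6), which encodes the histone H3 variant that marks the centromere, went the other way. It was at 122, 119 and 127 CPM in control and 89.3, 73.9 and 85.0 CPM in AclyM-KO libraries, so that every AclyM-KO value was well below every control value. The log2 fold change was -0.57 ± 0.08 (SE, edgeR adjusted p = 0.00143), and -0.49 without AclyM-KO replicate 2 (adjusted p = 1.22e-05 in edgeR). Per length it was the highest of the 54, at 83.7 CPM per kilobase in control and 56.4 in AclyM-KO libraries, against a median of 7.38 and 11.3 over the 54. All 6 of its RefSeq transcripts gave a like ratio of AclyM-KO to control, between 0.672 and 0.681. These transcripts overlap, with 1037 to 1337 counts each in control replicate 1, so the ratios are not independent. *Hjurp*, which loads the Cenpa protein onto centromeres and is outside the 54, was higher, from 55.2, 61.5 and 66.7 CPM to 77.8, 88.0 and 78.0 CPM (log2 fold change 0.41, edgeR adjusted p = 0.0106).

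Mitotic kinesins, the motors that slide, push or shorten spindle microtubules, rose in 6 of 7 genes and separated the groups in all 7, with a median log2 fold change of 0.64. *Kif11*, the Eg5 motor that pushes spindle poles apart, went from 35.0, 33.0 and 35.8 CPM to 57.0, 76.7 and 52.4 CPM (log2 fold change 0.85 ± 0.13 SE, edgeR adjusted p = 0.00186). *Kif20a*, a midzone motor, went from 39.8, 42.1 and 41.3 CPM to 57.3, 67.6 and 55.5 CPM, and the microtubule depolymerase *Kif2c* went from 14.1, 14.5 and 12.2 CPM to 20.3, 24.6 and 18.8 CPM. Their log2 fold changes were 0.56 and 0.66. *Kif23*, a centralspindlin subunit, had the smallest change of the 7 and the highest level per length (14.1 CPM per kilobase in control), at 47.2, 48.3 and 48.1 CPM in control and 54.2, 85.2 and 62.9 CPM in AclyM-KO libraries (log2 fold change 0.51, edgeR adjusted p = 0.0323). *Kif20b* and *Kif4*, which act in the late spindle, rose by 0.64 and 0.55 on the log2 scale. When AclyM-KO replicate 2 was left out, the log2 fold change of *Kif23* was 0.29 and that of *Kif4* 0.36. *Kif18a*, which limits microtubule growth, had the lowest level per length of the 54 (1.17 CPM per kilobase in control). It was at 3.0, 4.18 and 4.6 CPM in control and 5.57, 8.01 and 5.06 CPM in AclyM-KO libraries (log2 fold change 0.70, edgeR adjusted p = 0.0680). Without AclyM-KO replicate 2 its log2 fold change was 0.43 (edgeR adjusted p = 0.193).

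The genes of spindle assembly, midzone and cytokinesis had the highest median log2 fold change of the 9 roles, 0.79, with 6 genes higher, *Clasp2* lower and *Clasp1* past the threshold in neither direction. *Hmmr*, a spindle pole protein, went from 26.6, 27.1 and 25.1 CPM to 37.7, 56.8 and 46.6 CPM (log2 fold change 0.85 ± 0.13 SE, edgeR adjusted p = 0.00212). *Tpx2*, the activator of Aurora A on the spindle, went from 32.7, 41.6 and 38.4 CPM to 55.5, 80.0 and 61.5 CPM, and the midzone crosslinker *Prc1* from 45.6, 43.0 and 42.1 CPM to 58.8, 87.8 and 62.9 CPM. These are log2 fold changes of 0.81 and 0.69. *Ect2*, which starts the contractile ring by activating RhoA, went from 19.5, 19.9 and 21.5 CPM to 32.8, 41.6 and 32.6 CPM (log2 fold change 0.83 ± 0.12 SE, edgeR adjusted p = 0.00131) and had the lowest level per length of the 8. The ring scaffold *Anln* and the microtubule binder *Nusap1* rose by 0.78 and 0.80. *Clasp1* and *Clasp2* encode related microtubule-stabilising proteins that also work in cells that do not divide. *Clasp2* (chr9:113740077-113919697, plus strand) was at 106, 96.1 and 109 CPM in control and 90.5, 76.6 and 75.9 CPM in AclyM-KO libraries (log2 fold change -0.36 ± 0.09 SE, edgeR adjusted p = 0.0202). Of its 8 RefSeq transcripts, 6 had ratios of AclyM-KO to control from 0.775 to 0.782, and 5 of these have identical counts. The other 2, with at most 100 counts in a control library, had ratios of 1.04 and 1.14. *Clasp1* was at 50.3, 48.8 and 53.9 CPM and 46.6, 44.4 and 43.6 CPM, without overlap but with an adjusted p of 0.156 in edgeR (log2 fold change -0.18).

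Among 7 genes of chromosome condensation and structure, 6 rose and all 7 separated the groups. *Top2a*, the topoisomerase that untangles sister chromosomes, had 119.7, 125 and 128 CPM in control and 168, 245 and 167 CPM in AclyM-KO libraries. *Mki67*, the coat protein of mitotic chromosomes and a common marker of dividing cells, was at 145, 167 and 194 CPM and 215, 318 and 231 CPM. In both genes AclyM-KO replicates 1 and 3 were close to each other and replicate 2 was far above them, and the log2 fold changes without replicate 2 were 0.43 and 0.40 (adjusted p = 1.6e-05 and 0.00158 in edgeR). *Smc4*, a condensin core subunit with the highest level per length of the 7 (26.5 CPM per kilobase in control), went from 115, 119 and 109 CPM to 133, 185 and 142 CPM (log2 fold change 0.43), and its partner *Smc2* rose by 0.53. Without AclyM-KO replicate 2 these values were 0.27 for *Smc4* and 0.28 for *Smc2*. *Ncapd2*, of condensin I, had the smallest change, from 46.6, 46.7 and 44.3 CPM to 55.6, 59.0 and 59.5 CPM (log2 fold change 0.34, edgeR adjusted p = 0.0131). *Ncapg*, another condensin I subunit and the lowest of the 7 per length, was at 17.6, 13.5 and 17.3 CPM in control and 20.02, 26.7 and 20.2 CPM in AclyM-KO libraries. Its log2 fold change of 0.49 was just inside the threshold, and 0.33 without AclyM-KO replicate 2 was outside it (adjusted p = 0.0480 and 0.0667 in edgeR). *Ncaph* was outside it in both, at 0.35 on the log2 scale (edgeR adjusted p = 0.0710).

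**Figure D5:**
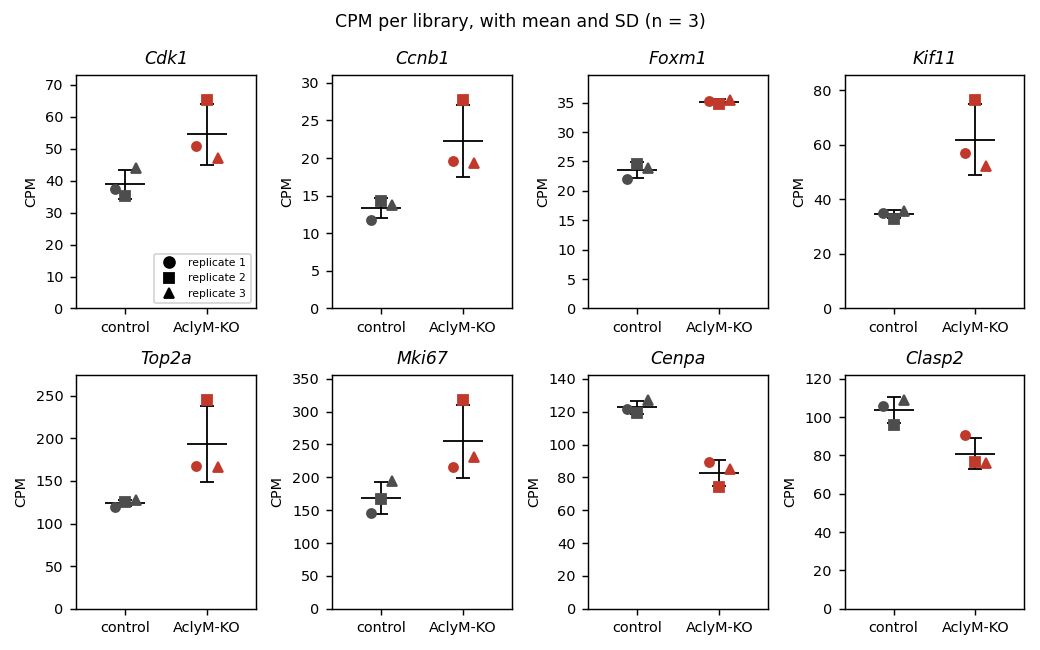
CPM (vertical axes from 0) in each control and AclyM-KO library for 8 of the genes, with the mean as a line and bars of 1 SD (n = 3 libraries). Replicate 2 of AclyM-KO is the highest point for *Cdk1*, *Ccnb1*, *Kif11*, *Top2a* and *Mki67*, the 3 AclyM-KO points of *Foxm1* nearly coincide, and *Cenpa* and *Clasp2* are lower in AclyM-KO libraries.

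A list of 85 other mitosis genes, all tested, showed a smaller shift. Of these, 35 (41.2%) were higher in AclyM-KO libraries and 0 lower in edgeR, against 6.7% and 5.65% of all genes tested. The median of the 85 was 0.38 on the log2 scale. Leaving out control replicate 1, 2 or 3 left 19, 17 or 20 of them higher. Without AclyM-KO replicate 2, 34 were higher and 1 (*Stag2*) lower, with a median of 0.26. At an unadjusted p under 0.05, 48 were higher and 1 lower (*Stag2*), against 13.9% and 13.3% of all genes tested. DESeq2 called 0 lower and limma-voom 1. Among those past the threshold, the largest changes were those of the phosphatase-targeting gene *Cdca2* (log2 fold change 1.01), the centromere gene *Cenpi* (0.94), the minus-end kinesin gene *Kifc1* (0.84), the centromere gene *Cenpq* (0.81) and the kinetochore gene *Ska2* (0.77). The smallest were those of the phosphatase gene *Cdc25b* (0.29), *Hjurp* (0.41), the APC/C subunit gene *Anapc5* (0.43), the spindle gene *Tacc3* (0.48) and *Cep55* (0.50), whose product acts in the last cut between daughter cells. Of 14 APC/C subunits, *Anapc5* alone was higher and none passed the threshold downward, and their median was 0.05 on the log2 scale. The 5 cohesin subunits, which hold sister chromatids together and also fold DNA in resting cells, did not pass it with all libraries, with log2 fold changes from -0.17 (*Stag2*) to 0.15. *Stag2* was lower without AclyM-KO replicate 2 (log2 fold change -0.22, edgeR adjusted p = 0.00678), with limma-voom and with the GC correction. The remaining 66 genes, once these complexes were set aside, held 34 that were higher, against 6.7% of all genes tested. The split was not among the planned groups, and setting aside genes that hardly changed raises the share of the rest.

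Of 4 progenitor markers, *Kit* was higher, and *Cd34*, *Flt3* and *Gata2* were too low to be tested. *Kit*, the stem cell factor receptor of marrow progenitors and mast cells, was at 10, 9.27 and 10.3 CPM in control and 18.6, 23.7 and 19 CPM in AclyM-KO libraries (log2 fold change 1.07, edgeR adjusted p = 0.000505). The 4 progenitor markers summed to between 9.72 and 10.8 CPM in control and between 19.4 and 24.6 CPM in AclyM-KO libraries, nearly all of it *Kit*. AclyM-KO replicate 2, highest in most mitosis genes, had the highest *Kit* and the lowest sum of macrophage markers, also without *Lyz2* (7050 CPM). The macrophage markers did not move together in this library. *Lyz2*, *Csf1r*, *Mertk* and *Cd68* had their lowest value there, *Itgam* and *Fcgr1* their highest (898.8 and 157.3 CPM), and *Adgre1* and *Cd14* neither. *Csf1r* fell from 3380, 3091 and 3240 CPM to 2813, 1733 and 2429 CPM, with the lowest value in the same library. The 4 mast cell and basophil markers summed to at most 0.264 CPM in any library, with *Ms4a2* and *Prss34* at 0 in all. The 8 neutrophil markers summed to between 13.8 and 16.3 CPM in control and between 10.9 and 18.2 CPM in AclyM-KO libraries. For B cells, T cells, erythroid, stromal and endothelial cells, the markers of each list were at most 13 CPM in sum. Of the neutrophil markers and these, only *Ltf*, *Ngp*, *Cd79b*, *Epor*, *Pecam1* and *Kdr* were high enough to be tested. They did not pass the threshold. The part of *Kit* and of the macrophage markers in the change of the mitosis genes was not tested.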

How the data were processed

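The authors prepared strand-specific mRNA libraries of unstimulated BMDMs, aligned reads to mm10 with STAR 2.5.2b and deposited raw counts per RefSeq transcript, with no normalization. Counting used HOMER2's analyzeRepeats.pl at default settings, and how that default treats strand is not spelled out in the sources used here. Of 12 columns of values, the 6 that match the labelled libraries were used, and 6 that belong to no sample here were not. Symbols came from a RefSeq gene table (GRCm38.p6) for 35440 of 35745 transcripts and from GENCODE M21 for 188. For each symbol the transcript with the highest total was kept (18 of the 54 members have several).

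Counts were tested with edgeR 4.0.16 (R 4.3.3): TMM scaling, the default filter on low counts (11470 genes kept), a quasi-likelihood test on genotype alone, and Benjamini-Hochberg adjustment with a threshold of 0.05. The method was tested on simulated data. With 3 libraries a group, an exact permutation test of a single gene cannot give a p below 0.1, so none was used. CPM values use TMM-scaled totals of the tested genes, and CPM per kilobase divides by transcript length. Exon overlaps (*Plk1*, *Zwilch*, *Cdc20*, *Kif20a*, *Kif4*, *Prc1*, *Nusap1* and *Ncapg* with a gene on the opposite strand, *Foxm1* with genes on the same strand) are from GENCODE M21. Alternatives used DESeq2 1.42.0 and limma 3.58.1, other scaling and filters, counts thinned to like depth, counts summed over a gene's transcripts, a threshold of 0.01 and each library left out.

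The members, the other mitosis genes and the marker lists were chosen with earlier results of these data known. By the naming rule, any member may be named. Values per library are given for 24 listed genes, for members past the threshold and lower, and for the largest and smallest fold change and level per length in each role. Of the other mitosis genes, the 5 largest and the 5 smallest changes among those past the threshold are named, and *Hjurp* and *Stag2* were described after their values were seen. *Trac*, a T cell marker, was not matched.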

Additional observations from a re-analysis of the deposited data

How the results depend on the processing

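Counts are of members higher, members lower, other mitosis genes higher, other mitosis genes lower and all genes past the threshold, which were 37, 2, 35, 0 and 1416. With DESeq2, RLE size factors, total counts, no count filter, a minimum of 10 counts per library, AclyM-KO replicate 2 thinned to like depth, and counts summed over a gene's transcripts, each count stayed within 1.5 times its value, with 36 to 43 members higher and 2 lower. With limma-voom, 2187 genes passed and 1 other mitosis gene (*Stag2*) was lower. At a threshold of 0.01 the counts were 20, 1, 15 and 0, and 557 for all genes. With GC content corrected (added after the data were seen), 1 other mitosis gene, *Stag2*, was lower, and 1 was lower with the correction and without AclyM-KO replicate 2. With each library left out in turn, members higher ranged from 20 to 44, members lower from 1 to 2, other mitosis genes higher from 17 to 38 and lower from 0 to 1, all genes from 598 to 2136, and the members' median log2 fold change from 0.43 to 0.69. The low counts came from leaving out control replicates 1, 2 and 3, with 20, 21 and 23 members higher and 19, 17 and 20 other mitosis genes higher. The 2136 genes and the lower *Stag2* came from leaving out AclyM-KO replicate 2, and 1 member was lower without AclyM-KO replicate 3. The cause of these shifts was not tested. No fold change of a member that had passed the threshold reversed. The labels link same-numbered libraries by number only. Correlations of their deviations were 0.09, 0.114 and -0.047, against -0.132 to 0.07 for pairs with unlike numbers. With a replicate block, 41 members were higher and 2 lower, 37 and 0 of the other mitosis genes, and 1583 of all genes passed. *Mad2l1*, *Zwilch*, *Kif18a* and *Ncaph* were the members that then passed. *Cenpm*, *Spc24*, *Cenpk*, *Kif18a* and *Cdc25c* were under 9 CPM in every library, and of these *Cdc25c* passed. The part of depth in this was not tested.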
